A study of Homo sapiens with 21 samples.

Results

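Interferon-stimulated effector genes are the genes that type I and type II interferons switch on to block viral replication and to call in immune cells. A list of 39 such genes was taken by symbol from the series' table of 16383 genes, and all 39 were present. The list was then limited to genes with a normalised count of 10 or more in 3 or more of the 21 libraries. This left 38 of the 39, out of 11579 genes of the series that met the same minimum. The gene left out was IFI27, which encodes a mitochondrial interferon-induced protein. The libraries were poly(A) RNA-seq of IMR90, a wild-type human lung fibroblast line, in 7 groups of 3. Proliferating cells were labelled as not irradiated, and no knockdown was given for them. The other 6 groups were irradiated to make them senescent and transfected with 5 nM siRNA on days 4 and 7 after irradiation, and were harvested on day 10. The siRNAs were either of a pair of non-targeting ones (NT3 and NT4) or targeted CCND1 alone, CDK4 alone, CDK6 alone, or both kinases (dual knockdown). All 18 irradiated libraries therefore share irradiation and transfection, which the proliferating libraries lack, so senescence cannot be told apart from transfection in that comparison. The labels name each siRNA by its target and do not say whether it was 1 oligo or a pool. No label says whether the 3 libraries of a group came from separate cultures, so the p-values measure the spread between these libraries, which may be technical. Column names give a library's group without its replicate number, so numbers within a group here follow column order.

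Interferons bind receptors at the cell surface that are joined to the JAK kinases, and the kinases phosphorylate STAT proteins. STAT2 and IRF9 are subunits of ISGF3, which binds the interferon-stimulated response element (ISRE) in the promoters of effector genes, while STAT dimers bind the gamma-activated site (GAS). In senescent fibroblasts, DNA in the cytosol is known to engage the cGAS-STING pathway, and interferon-stimulated genes are known to be active late in senescence. Cyclin D1, encoded by CCND1, binds and activates the kinases CDK4 and CDK6, which phosphorylate the retinoblastoma protein.

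Reads assigned to genes of the table numbered 12892442 to 21822152 a library. Each siRNA lowered its target: CCND1 changed by -3.05 log2 in CCND1 knockdown, CDK4 by -3.51 and -3.40 in CDK4 and dual knockdown, and CDK6 by -2.60 and -2.27 in CDK6 and dual knockdown, all against the 6 control libraries (NT3 and NT4). All 9 fibroblast markers, among them COL1A1, VIM and THY1, had a mean normalised count of 100 or more. Their summed level was 681903 to 867109 in dual knockdown, 604710.0 to 620896 in proliferating cells and 451735 to 562545 in the 6 controls; the part of this shift in the results of dual knockdown was not tested. Of 7 leukocyte markers 1 (CD68) reached a mean of 100, of 5 endothelial markers 1 (TEK), and of 6 epithelial markers 3, all keratins. The summed endothelial level was 4092 to 4509 in CDK6 knockdown, 3441 to 3694 in dual knockdown, 2058 to 3717 in the 6 controls and 1763 to 1888 in proliferating cells; nearly all of it was TEK, and the other 4, PECAM1, VWF, CDH5 and KDR, had means under 20 in each group. The summed leukocyte level, nearly all of it CD68, was 1512 to 1618 in CDK4 knockdown and 896.7 to 1453 in the 6 controls; the part of these shifts in the results of CDK6 and CDK4 knockdown was not tested. Of 3 listed markers of plasmacytoid dendritic cells, which make much interferon in blood, 2 were among the genes of the series. The series lists no gene with an Entrez number above 140467, so a gene absent from it is not shown to be unexpressed. LILRA4 was at 0 in all 21 libraries, and the summed level of the 2 was at most 3.34 in any library, with NT4. Library 3 of NT3 stood apart from the other 2 NT3 libraries: across all genes with a known transcript length, the Spearman correlation of length with that library's deviation from its group mean was -0.613, and it was -0.691 over the 38 genes. Deviations within a group share 1 mean, so their signs are tied. Outside NT3 the correlation over all genes ran from -0.366 (CDK4 library 3) to 0.257 (NT4 library 3). Over the 38 genes it ran from -0.496 (NT4 library 2) to 0.503 (NT4 library 3). In bulk RNA, fewer cells that express a gene cannot be told apart from less RNA per cell.

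The promoters of 34 of the 39 genes were found in RefSeq (GRCh38.p14), each from 250 bases before to 50 bases after the annotated start; those of IFIT2, IFITM2, MX2, USP18 and TRIM22 were not matched. The ISRE core, GAAA followed after any 2 bases by GAAA and searched on both strands in the window that RefSeq's table lists first for a gene, occurred in 24 of the 34 (70.6%) and in 996 of 27305 promoters of the same length (3.65%). The GAS core, TTCNNNGAA, which reads the same on both strands, occurred in 9 of the 34 (26.5%) and in 2152 of the 27305 (7.88%), and 4 of its 11 matches in the 34 windows overlapped an ISRE match. With every listed window of a gene counted, 12 of the 34 having more than 1, the cores occurred in 26 and 11 of the 34 and in 4.38% and 9.38% of all genes of the table. A match describes letters and is not evidence of a bound factor. 5 promoters are shown 5′ to 3′ in the direction of transcription, with ISRE matches in capitals and overlapping matches merged into 1 run. IFI44L (chr1:78620198-78620497, plus strand, 2 matches) and IFIT1 (chr10:89392373-89392672, plus strand, 2 matches) are among the genes with the widest range between groups. ISG15 (chr1:1013247-1013546, plus strand, 2 matches) and HERC5 (chr4:88456869-88457168, plus strand, 3 matches) encode a ubiquitin-like protein and its ligase. GBP1 (chr1:89065159-89065458, minus strand, 1 match) is shown because its level did not follow the other 4. Not every gene of wide range held a match. RSAD2, with the widest range (8.11 log2), had none in its first listed window and 1 in its other. CMPK2 (6.12) and CXCL11 (5.46) had none in any, while BST2 (6.66) had 2 and IFI6 (6.35) had 3. A link between matches and range was not tested.

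IFI44L: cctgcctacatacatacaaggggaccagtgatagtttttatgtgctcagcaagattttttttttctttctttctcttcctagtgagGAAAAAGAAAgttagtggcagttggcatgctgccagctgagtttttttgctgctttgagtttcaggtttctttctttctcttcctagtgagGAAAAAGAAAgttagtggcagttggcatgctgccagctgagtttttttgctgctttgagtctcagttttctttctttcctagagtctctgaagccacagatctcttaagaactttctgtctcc

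IFIT1: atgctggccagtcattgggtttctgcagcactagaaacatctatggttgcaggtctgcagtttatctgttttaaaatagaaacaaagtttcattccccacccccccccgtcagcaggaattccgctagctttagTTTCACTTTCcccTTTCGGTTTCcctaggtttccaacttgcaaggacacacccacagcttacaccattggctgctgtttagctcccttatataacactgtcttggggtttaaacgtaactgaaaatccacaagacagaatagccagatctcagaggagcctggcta

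ISG15: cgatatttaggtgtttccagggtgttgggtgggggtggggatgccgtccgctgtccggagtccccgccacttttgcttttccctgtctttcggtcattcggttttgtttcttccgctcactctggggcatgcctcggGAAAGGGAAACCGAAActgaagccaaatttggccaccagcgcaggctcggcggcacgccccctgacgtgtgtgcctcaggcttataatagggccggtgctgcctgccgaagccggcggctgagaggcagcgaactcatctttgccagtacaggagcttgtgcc

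HERC5: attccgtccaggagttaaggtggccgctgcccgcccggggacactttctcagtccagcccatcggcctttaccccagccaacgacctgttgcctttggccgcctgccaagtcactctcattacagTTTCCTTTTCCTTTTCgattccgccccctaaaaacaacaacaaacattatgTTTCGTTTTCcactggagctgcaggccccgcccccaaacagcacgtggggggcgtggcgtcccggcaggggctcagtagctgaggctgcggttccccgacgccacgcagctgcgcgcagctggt

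GBP1: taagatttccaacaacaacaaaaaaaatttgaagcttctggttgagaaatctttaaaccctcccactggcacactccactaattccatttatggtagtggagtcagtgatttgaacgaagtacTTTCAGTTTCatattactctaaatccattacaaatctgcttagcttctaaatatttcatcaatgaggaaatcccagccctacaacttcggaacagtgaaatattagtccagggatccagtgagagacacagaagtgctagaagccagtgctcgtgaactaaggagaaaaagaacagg

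Senescent control cells carried far more effector RNA than proliferating cells. Against proliferating libraries, 36 of the 38 passed the test upward and 1 downward (limma on log2(normalised count + 1), Benjamini-Hochberg adjusted p under 0.05 over 11579 genes), and 33 of the 38 rose by more than 1 log2. Beside these 33, 1262 of the 11579 tested genes passed the test with a rise of more than 1 log2. HERC5, BST2, RSAD2, CMPK2, IFI44L, CXCL10 and CXCL11 lay under 10 in each proliferating library and met the minimum only through irradiated ones. For these genes the minimum itself favoured a rise, and they are among both the 36 and the 33. Of all tested genes, 32.6% were called higher, 36.1% lower and 68.6% in either direction. The median difference was 2.32 log2 over the 38 genes and -0.03 over all tested genes. The exceptions were IFITM2, which fell slightly, and GBP1, which did not pass the test. When the libraries were centred on their medians instead, the all-gene median of this comparison was 0.09, and the 36 calls upward did not change in number.

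Knockdown of CCND1, of CDK6, and of both kinases lowered most of the effector genes in senescent cells, and knockdown of CDK4 alone lowered few. In CCND1 knockdown 2 of the 38 passed the test upward and 33 downward, with a median of -0.83 log2 over the 38 genes and -0.01 over all tested genes; 16.7% of all tested genes were called higher, 14.4% lower and 31.0% in either direction. For CDK6 knockdown, 2 of the 38 passed the test upward and 35 downward, with a median of -1.0005 against -0.01 over all genes; 21.1% of all tested genes were called higher, 20.8% lower and 41.9% in either direction. In dual knockdown 0 of the 38 passed the test upward and 35 downward, with a median of -1.68 against 0.00 over all genes, and 28 of the 38 fell by more than 1 log2. Of all tested genes 22.5% were called higher, 21.5% lower and 44.0% in either direction, and 611 of the 11579 passed with a fall of more than 1 log2. The 4 comparisons share the same 6 control libraries.

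After CDK4 knockdown alone, 0 of the 38 passed the test upward and 2 downward, beside 8.46% and 7.55% of all tested genes (16.0% in either direction), and the median was -0.06 log2 (0.00 over all genes). The share of the list called is thus below that of all genes in the upward direction and near it in the downward one. The genes called were UBE2L6, the E2 enzyme that carries ISG15, at -0.32 (SE 0.11, adjusted p = 0.0426), and IFITM2, an endosomal membrane protein, at -0.29 (SE 0.09, adjusted p = 0.0431). The count rose to 4 without library 2 of NT3, fell to 1 (downward) without NT4 library 3 or CDK4 library 3, and fell to 0 without NT4 library 1, NT4 library 2 or CDK4 library 1. Without CDK4 library 2 neither gene was called, GBP1 was called upward (0.35), and the median over the 38 was 0.04; without NT3 library 1 the 2 calls were IFITM2 downward and GBP1 upward (0.32). Against NT3 alone 7 genes were called (1 upward, 6 downward), and against NT4 alone 0 of the 38, with medians of -0.25 and 0.10. With edgeR and with DESeq2 on recovered reads 3 were called in each. Of the 11579 tested genes 1854 were called in the main fit, 2962 against NT3 alone and 1342 against NT4 alone. With edgeR they numbered 1934, with DESeq2 2089, and in the refits that left out 1 library named above 1061 to 2233. In CDK4 knockdown the Spearman correlation of transcript length with the log2 change was 0.469 over the 38 genes and 0.164 over all genes, and without NT3 library 3 it was 0.243 and -0.0419; its part in these counts was not tested.

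**Figure D1:**
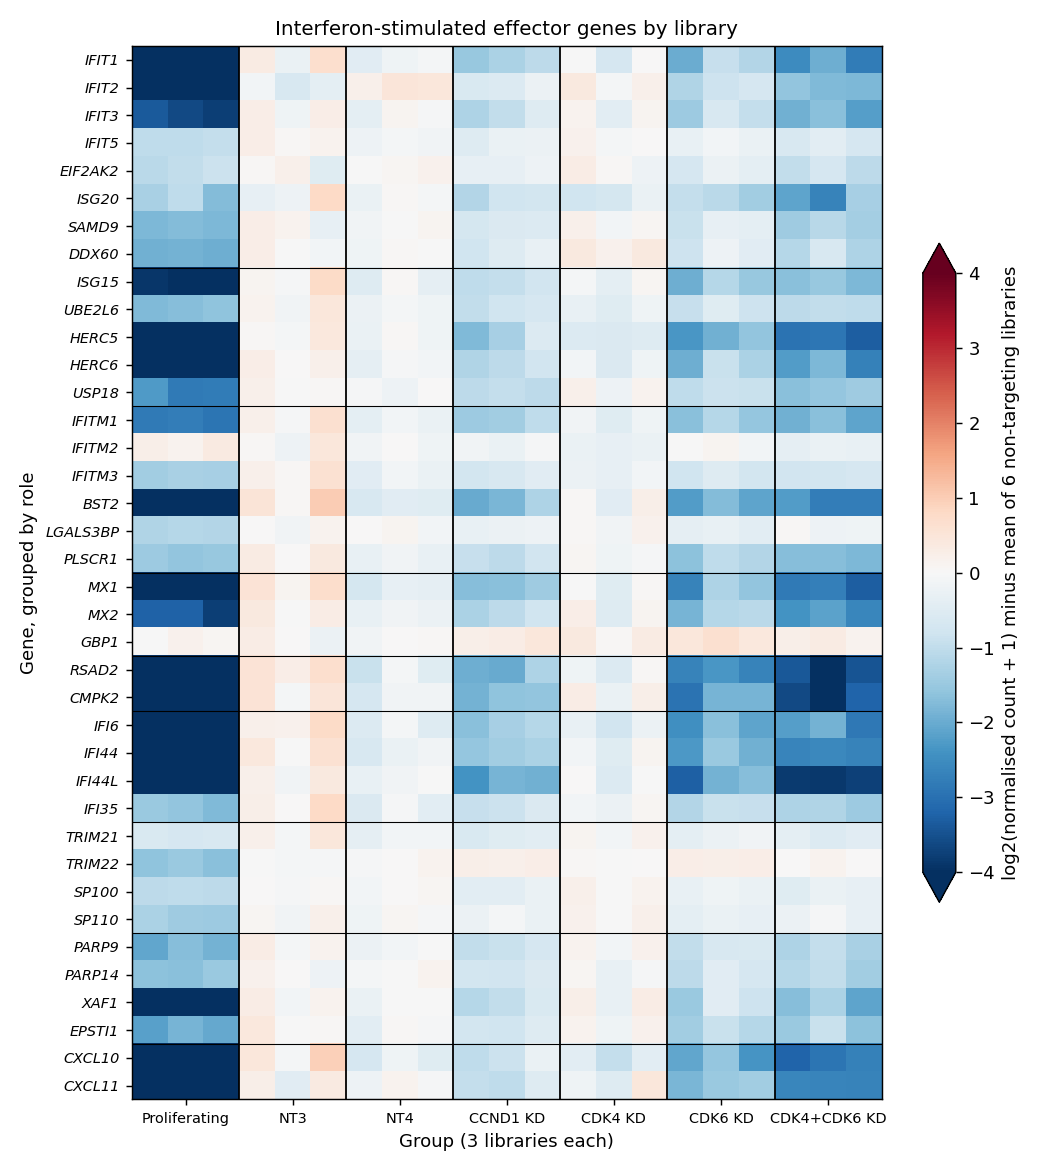
Heat map of the 38 genes that met the minimum, in rows grouped by role, against the 21 libraries in columns grouped by condition; the colour is log2(normalised count + 1) minus the mean of the 6 control libraries (NT3 and NT4), in log2 units. The colour scale ends at 4 log2 in either direction. Proliferating libraries are low in nearly all rows, with GBP1 and IFITM2 as exceptions, dual knockdown has the lowest mean of the 6 irradiated groups in 32 of the 38 rows, and CDK4 knockdown lies near the controls. Ranks of the group means were not counted over all tested genes.

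The order of the group means was similar from gene to gene. Among the 6 irradiated groups, dual knockdown had the lowest mean in 32 of the 38 genes, and NT3 had the highest in 28. In 24 of the 38 the means fell in the order of controls, CCND1 knockdown, CDK6 knockdown, dual knockdown. These ranks were not counted over all tested genes, so how common they are outside the list is not shown here. The 6 genes whose lowest irradiated group was another were TRIM22 (NT3), GBP1 (NT4), TRIM21 and SP100 (CCND1 knockdown), and LGALS3BP and SP110 (CDK6 knockdown). Of the neighbours in this order, CDK6 and CCND1 knockdown differed past the test in 3 of the 38, and dual knockdown was lower than CDK6 knockdown in 22 and higher in 1 (LGALS3BP, against this order); the others are not shown to differ.

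**Figure D2:**
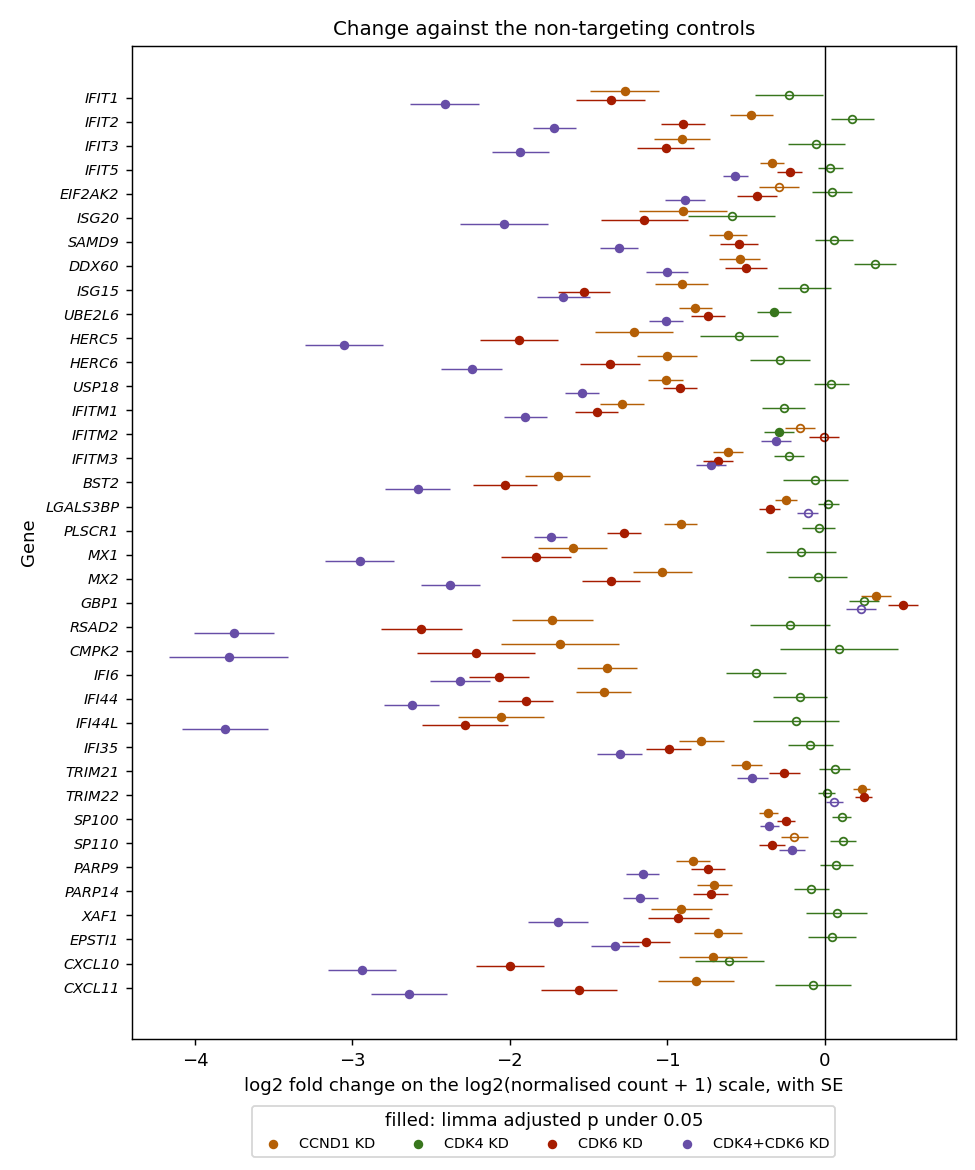
Log2 difference of each knockdown from the 6 control libraries for the 38 genes, 1 point a gene and comparison, with filled points for adjusted p under 0.05 and bars for the standard error from limma. The medians are -0.83 for CCND1, -0.06 for CDK4, -1.0005 for CDK6 and -1.68 for dual knockdown.

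Levels between genes can be compared only per length. Per kilobase of the canonical transcript, the mean normalised count over the 21 libraries was highest for IFITM3 (9593), IFI6 (6051) and ISG15 (3396), and lowest for HERC5 (25.8), CMPK2 (25.7) and ISG20 (18.3). The genes with the widest range of group means are not the ones with the highest levels in all cases: the range was 5.32 log2 for HERC5 and 6.12 for CMPK2, at low levels, and 1.64 for IFITM3.

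8 of the effectors bind RNA or block translation: IFIT1, IFIT2, IFIT3 and IFIT5 bind viral RNA ends or the initiation factor eIF3, EIF2AK2 (PKR) phosphorylates eIF2alpha on sensing double-stranded RNA, ISG20 is a 3′ exonuclease, SAMD9 restricts poxviruses and DDX60 is an RNA helicase. All 8 rose in senescent controls (median 1.84 log2), 7 fell in CCND1 knockdown, 0 passed the test in CDK4 knockdown, and all 8 fell in CDK6 knockdown and in dual knockdown (medians -0.72 and -1.51). IFIT1 had normalised counts of 93.5, 112.8 and 115.2 in proliferating cells, 4632, 3069.7 and 5879.7 with NT3 and 2744, 3289 and 3506 with NT4. They were 1310.2, 1541 and 1812 in CCND1 knockdown, 3694, 2327 and 3734 in CDK4 knockdown, 940.5, 1963 and 1651 in CDK6 knockdown and 652.3, 961.99 and 539.6 in dual knockdown. The controls and CDK4 knockdown lay above all CCND1 and CDK6 knockdown libraries, CCND1 and CDK6 knockdown overlapped each other, and the lowest CDK6 library lay within the range of the dual knockdown. IFIT1 rose by 5.11 (SE 0.22, adjusted p = 9.02e-15) log2 in senescent controls and changed by -1.27 (SE 0.22, adjusted p = 0.000152) in CCND1, -0.23 (SE 0.22, adjusted p = 0.544) in CDK4, -1.36 (SE 0.22, adjusted p = 3.73e-05) in CDK6 and -2.41 (SE 0.22, adjusted p = 1.23e-08) in dual knockdown. The mean after dual knockdown was 18.6% of the control mean, against 39.4% for CDK6 and 40.3% for CCND1 knockdown. IFIT2 and IFIT3 fell in dual knockdown, with log2 changes of -1.72 and -1.93, and IFIT5, EIF2AK2 and SAMD9 with changes of -0.57, -0.89 and -1.30. IFIT2 was the 1 gene of the 38 that passed the test as higher with NT4 than with NT3, by 0.75 (SE 0.16, adjusted p = 0.0013) log2, and its fall in CCND1 knockdown (-0.47, SE 0.14, adjusted p = 0.0133) was -0.09 and not past the test against NT3 alone. That call was also lost without CCND1 library 1 or library 2 (-0.39 and -0.43). EIF2AK2 in CCND1 knockdown was -0.29 (SE 0.13, adjusted p = 0.0895), and its fall in CDK6 knockdown (-0.43, SE 0.13, adjusted p = 0.00993) and that of DDX60 (-0.50, SE 0.13, adjusted p = 0.0044) were not called without CDK6 library 1 (-0.30 and -0.33); that of EIF2AK2 was also lost against NT3 alone (-0.36). The fall of IFIT5 in CDK6 knockdown (-0.22, SE 0.08, adjusted p = 0.0249) was lost against NT4 alone (-0.08) and without any 1 of NT3 library 1, NT4 library 2, CDK6 library 1 and CDK6 library 3 (-0.21 to -0.18), and its fall in CCND1 knockdown was lost against NT4 alone (-0.19). That of ISG20 in CCND1 knockdown (-0.90, SE 0.28, adjusted p = 0.0172) was lost against NT4 alone (-0.81) and without CCND1 library 1 (-0.76). The 4 IFIT genes lie together on chromosome 10, IFIT1 at chr10:89392546-89406487 (hg38).

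ISG15 is a ubiquitin-like protein that UBE2L6 and the ligase HERC5 attach to other proteins; HERC6 is a close relative of HERC5, and USP18 removes ISG15 and also damps interferon receptor signalling. All 5 genes rose in senescent controls (median 4.02 log2), and all 5 fell in CCND1 (median -1.001), CDK6 (-1.37) and dual knockdown (-1.66); in CDK4 knockdown UBE2L6 alone passed the test. ISG15 had normalised counts of 240.2, 221.3 and 193.1 in proliferating cells, 3853, 3414 and 5984 with NT3 and 2485, 3648 and 2753 with NT4. They were 1742, 1847 and 2085 in CCND1 knockdown, 3372, 2677 and 3758 in CDK4 knockdown, 919.1, 1620.4 and 1238 in CDK6 knockdown and 1118, 1242 and 1012 in dual knockdown. The CDK6 and dual knockdown libraries of ISG15 overlapped, and both sets lay below all 3 CCND1 libraries. ISG15 rose by 4.02 (SE 0.17, adjusted p = 5.76e-15) log2 in senescent controls and changed by -0.91 (SE 0.17, adjusted p = 0.000293) in CCND1, -1.53 (SE 0.17, adjusted p = 2.68e-07) in CDK6 and -1.66 (SE 0.17, adjusted p = 5.65e-08) in dual knockdown. HERC5 had normalised counts of 3.49, 2.13 and 6.20 in proliferating cells, 181.7, 166.7 and 240.3 with NT3 and 149.1, 182.96 and 157.7 with NT4. They were 51.05, 70.4 and 121.7 in CCND1 knockdown, 122.2, 118.8 and 123.7 in CDK4 knockdown, 34.6, 45.7 and 59.4 in CDK6 knockdown and 22.1, 22.9 and 17.02 in dual knockdown. For HERC5 the 3 CDK4 knockdown libraries lay below all 6 controls, and the 3 dual knockdown libraries lay below all others that were irradiated. The change of HERC5 in CDK4 knockdown, -0.54 (SE 0.25, adjusted p = 0.151), did not pass the test; it passed with DESeq2 on recovered reads (-0.55) and when the compared groups were fitted alone. HERC5 changed by -3.05 log2 in dual knockdown, to 11.5% of the control mean, and HERC6, its neighbour on chromosome 4, changed by -2.24. USP18 rose by 2.63 (SE 0.11, adjusted p = 7.12e-15) in senescent controls and fell, with a log2 change of -1.54, in dual knockdown.

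6 members act at membranes: IFITM1, IFITM2 and IFITM3 hinder fusion of entering viruses, BST2 (tetherin) holds budding virus at the cell surface, PLSCR1 is a phospholipid scramblase, and LGALS3BP is a secreted glycoprotein that binds galectins. Of the 6, 5 rose and 1 fell in senescent controls, 5 fell in CCND1 and 5 in CDK6 knockdown, and 5 fell in dual knockdown (medians -0.77, -0.98 and -1.23 log2). IFITM3 had normalised counts of 3012, 3189 and 3169 in proliferating cells, 9038, 8176 and 11929 with NT3 and 5758, 7326 and 6501 with NT4. They were 4730.3, 5028 and 5734 in CCND1 knockdown, 6760.2, 6250.2 and 7258 in CDK4 knockdown, 4588, 5521 and 4758 in CDK6 knockdown and 4618, 4775 and 4968 in dual knockdown. For IFITM3, the NT3 libraries lay above all others, CDK4 knockdown lay within the range of NT4, and the CCND1, CDK6 and dual knockdown libraries overlapped one another. IFITM3 rose by 1.34 (SE 0.10, adjusted p = 4.27e-11) log2 in senescent controls and fell, with log2 changes of -0.62, -0.68 and -0.72 in CCND1, CDK6 and dual knockdown. BST2 had normalised counts of 2.62, 3.19 and 2.66 in proliferating cells, 371.6, 266.04 and 516.98 with NT3 and 164.7, 188.8 and 182.7 with NT4. They were 62.7, 71.5 and 108.9 in CCND1 knockdown, 267.1, 187.8 and 300.3 in CDK4 knockdown, 53.9, 76.4 and 58.4 in CDK6 knockdown and 54.1, 37.1 and 37.04 in dual knockdown. The 3 proliferating libraries of BST2 held 3 reads each. BST2 reads in the 6 controls were, per unit of size factor, 97.98 (95% exact interval 51.5 to 214.6) times those in proliferating cells, an interval that covers counting error only. It changed by -1.70 (SE 0.21, adjusted p = 2.56e-06) log2 in CCND1, -2.03 (SE 0.21, adjusted p = 9.57e-08) in CDK6 and -2.59 (SE 0.21, adjusted p = 1.6e-09) in dual knockdown.

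IFITM2 did not move with the rest of this class in senescent controls, CCND1 or CDK6 knockdown, and LGALS3BP did not in dual knockdown. IFITM2 was -0.25 (SE 0.09, adjusted p = 0.0258) log2 in senescent controls against proliferating cells, and that call was lost under median centring (-0.13), under quantile normalisation (-0.18), with the compared groups alone, against NT3 alone (-0.15) and without proliferating library 1, proliferating library 3 or NT3 library 2. It was 0.00 (SE 0.09, adjusted p = 0.991) in CDK6 knockdown and -0.16 (SE 0.09, adjusted p = 0.228) in CCND1 knockdown, and fell, with a log2 change of -0.31, in dual knockdown, a call lost with the compared groups alone, against NT4 alone (-0.21) and without dual knockdown library 1 (-0.28). IFITM2 and IFITM3 are near-identical in sequence, so reads may be split between them and both values are uncertain; 351 bases of IFITM1 exons are also annotated in a readthrough gene on the same strand. LGALS3BP rose by 1.18 (SE 0.07, adjusted p = 1.35e-12) in senescent controls, fell, with log2 changes of -0.25 in CCND1 and -0.35 in CDK6 knockdown, and was -0.11 (SE 0.07, adjusted p = 0.214) in dual knockdown. The CCND1 call was lost without CCND1 library 1 (-0.22). PLSCR1 rose by 1.51 log2 in senescent controls and fell, with a log2 change of -1.74, in dual knockdown, and IFITM1 likewise rose by 2.85 and fell, with a change of -1.90.

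MX1, MX2 and GBP1 encode large interferon-induced GTPases; MX1 blocks influenza-like viruses, MX2 restricts HIV at the nuclear pore, and GBP1 coats pathogen membranes and is induced above all by interferon gamma. MX1 had normalised counts of 48.04, 34.1 and 45.2 in proliferating cells, 4791, 3499 and 5337 with NT3 and 1997, 2589 and 2528 with NT4. They were 990.1, 1013 and 1221 in CCND1 knockdown, 3245, 2306 and 3342 in CDK4 knockdown, 506.9, 1382 and 1075 in CDK6 knockdown and 456.9, 487.001 and 328.4 in dual knockdown. The dual knockdown libraries of MX1 lay below all CDK6 knockdown libraries, and all 3 NT3 libraries lay above all 3 NT4 libraries. MX1 rose by 6.24 (SE 0.22, adjusted p = 4.4e-16) log2 in senescent controls and changed by -1.60 (SE 0.22, adjusted p = 1.14e-05) in CCND1, -0.15 (SE 0.22, adjusted p = 0.708) in CDK4, -1.83 (SE 0.22, adjusted p = 9.35e-07) in CDK6 and -2.95 (SE 0.22, adjusted p = 5.89e-10) in dual knockdown, where its mean was 12.3% of the control mean. MX1 (chr21:41420020-41470071, hg38) shares 562 exon bases with TMPRSS2 on the opposite strand. MX2, next to it on chromosome 21, rose by 3.41 (SE 0.19, adjusted p = 5.03e-13) and fell, with a log2 change of -2.38, in dual knockdown. GBP1 had normalised counts of 1034, 1161 and 1097 in proliferating cells, 1278, 1035 and 879.8 with NT3 and 945.98, 1047 and 1067 with NT4. They were 1210.2, 1264 and 1429 in CCND1 knockdown, 1354, 1063 and 1291 in CDK4 knockdown, 1421, 1598 and 1378 in CDK6 knockdown and 1213, 1300.5 and 1133 in dual knockdown. The proliferating libraries of GBP1 lay within the range of the 6 controls, and the 3 CDK6 knockdown libraries lay above all 6. GBP1 was -0.08 (SE 0.10, adjusted p = 0.453) log2 in senescent controls, and it rose by 0.33 (SE 0.10, adjusted p = 0.0125) in CCND1 and 0.50 (SE 0.10, adjusted p = 0.000245) in CDK6 knockdown; in dual knockdown it was 0.23 (SE 0.10, adjusted p = 0.0559). The CCND1 call was lost without CCND1 library 3 (0.26) and when the compared groups were fitted alone.

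RSAD2 (viperin) makes a chain-terminating nucleotide from CTP, and CMPK2, a nucleotide kinase encoded beside it on the other strand on chromosome 2, phosphorylates nucleoside monophosphates. RSAD2 had normalised counts of 0, 0 and 0.886 in proliferating cells, 366.5, 303.6 and 399.3 with NT3 and 134.7, 238.4 and 178.9 with NT4. They were 64.9, 61.9 and 105.999 in CCND1 knockdown, 225.4, 171.5 and 261.1 in CDK4 knockdown, 38.7, 49.4 and 38.3 in CDK6 knockdown and 23.2, 10.9 and 22.02 in dual knockdown. RSAD2 had 1 read in all 3 proliferating libraries together, and its reads in the 6 controls were 866.7 (95% exact interval 155.3 to 34252) times those in proliferating cells per unit of size factor; the interval covers counting error only. The dual knockdown libraries lay below all CDK6 knockdown libraries and still above all proliferating ones. RSAD2 changed by -1.73 (SE 0.26, adjusted p = 2.87e-05) log2 in CCND1, -2.56 (SE 0.26, adjusted p = 7.82e-08) in CDK6 and -3.75 (SE 0.26, adjusted p = 1.63e-10) in dual knockdown, the last at 6.92% of the control mean; the fitted difference of senescent controls, 7.68, depends on the pseudocount. CMPK2 fell, with log2 changes of -1.68, -2.21 and -3.79, and with a pseudocount of 0.1 its CCND1 call was lost (-1.70). The exons of RSAD2 and CMPK2 share 351 bases on opposite strands, and without a stated strand setting reads there cannot be assigned to 1 of them.

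The IFI proteins are a mixed group named for their induction: IFI6 sits in endoplasmic reticulum and mitochondrial membranes and blocks flavivirus replication, IFI44 and IFI44L are neighbours on chromosome 1, and IFI35 is a leucine zipper protein. All 4 that met the minimum rose in senescent controls (median 5.22 log2) and fell in CCND1, CDK6 and dual knockdown (medians -1.39, -1.98 and -2.47). IFI6 had normalised counts of 142.4, 143.7 and 162.98 in proliferating cells, 10766, 10359 and 15636 with NT3 and 6370.3, 8872 and 6498 with NT4. They were 2944, 3667 and 4165 in CCND1 knockdown, 7477, 5434 and 7925 in CDK4 knockdown, 1713, 2941 and 2161 in CDK6 knockdown and 2011, 2504 and 1281 in dual knockdown. The dual and CDK6 knockdown libraries of IFI6 overlapped, and both lay below all 3 CCND1 libraries. IFI6 changed by 5.95 (SE 0.19, adjusted p = 9.16e-17) in senescent controls, -1.38 (SE 0.19, adjusted p = 1.14e-05) in CCND1, -2.07 (SE 0.19, adjusted p = 2.32e-08) in CDK6 and -2.32 (SE 0.19, adjusted p = 2.58e-09) in dual knockdown. IFI44L had normalised counts of 3.49, 1.06 and 3.54 in proliferating cells, 608.3, 483.1 and 695.4 with NT3 and 436.3, 486.6 and 532.8 with NT4. They were 99.97, 147.2 and 141.3 in CCND1 knockdown, 541.7, 365.4 and 527.04 in CDK4 knockdown, 54.96, 143.5 and 161.9 in CDK6 knockdown and 36.4, 36.03 and 39.04 in dual knockdown. For IFI44L the dual knockdown libraries lay below all other irradiated libraries, and the CCND1 and CDK6 knockdown libraries overlapped. IFI44L changed by -2.06 (SE 0.27, adjusted p = 7.31e-06) in CCND1, -2.29 (SE 0.27, adjusted p = 8.45e-07) in CDK6 and -3.81 (SE 0.27, adjusted p = 3.16e-10) in dual knockdown, where its mean was 6.88% of the control mean; its reads in the controls were 190.4 (95% exact interval 100.2 to 416.7) times those in proliferating cells. IFI27 was listed at 0 in all 3 proliferating libraries, and held at most 11 reads in any library, in CDK6 knockdown library 1, so no test was made.

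**Figure D3:**
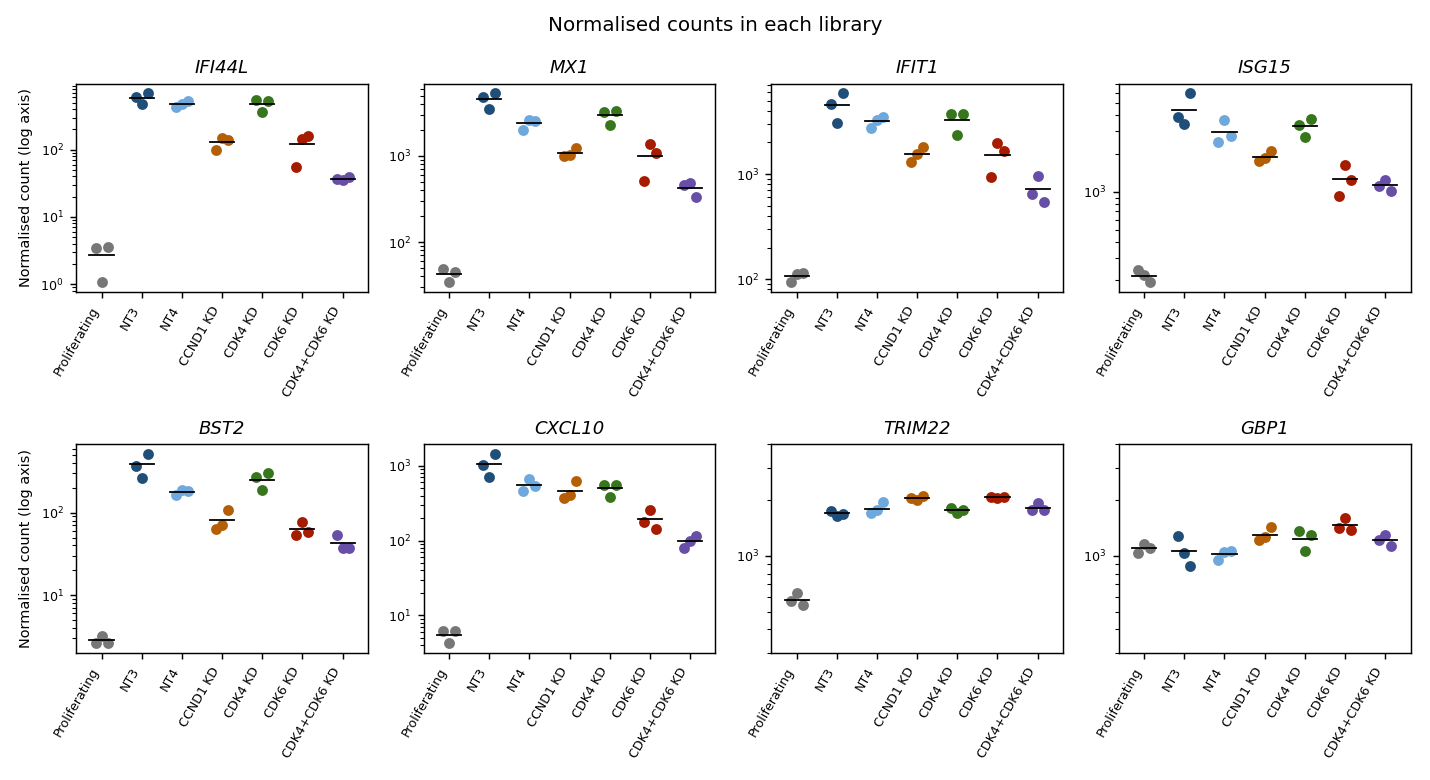
Normalised counts of members named by role, 1 panel a gene on a log10 axis, with 1 point a library and a bar for the mean of each of the 7 groups. The panels are IFI44L, MX1, IFIT1, ISG15, BST2, CXCL10, TRIM22 and GBP1. The first 6 have their lowest irradiated mean in dual knockdown, TRIM22 is highest in CCND1 and CDK6 knockdown, and GBP1 shows proliferating libraries within the range of the controls.

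TRIM21, an antibody receptor of the cytosol, TRIM22, an antiviral ubiquitin ligase, and SP100 and SP110, parts of nuclear bodies, had the smallest median change in dual knockdown of the 9 role classes. All 4 rose in senescent controls (median 1.21 log2), and the medians in CCND1, CDK6 and dual knockdown were -0.28, -0.25 and -0.28. SP100 had normalised counts of 1245, 1272 and 1253 in proliferating cells, 2619, 2491 and 2647 with NT3 and 2407, 2601 and 2707 with NT4. They were 1942, 1936 and 2156 in CCND1 knockdown, 2968, 2525 and 2855 in CDK4 knockdown, 2106, 2290.3 and 2132 in CDK6 knockdown and 1859, 2161 and 2049 in dual knockdown. The CCND1, CDK6 and dual knockdown libraries of SP100 lay below all 6 controls and overlapped one another. SP100 fell, with log2 changes of -0.36, -0.24 and -0.35 in the 3 knockdowns. TRIM22 had normalised counts of 570.4, 627.8 and 542.1 in proliferating cells, 1737, 1650.1 and 1692 with NT3 and 1696, 1758 and 1942 with NT4. They were 2059.9, 1991 and 2113 in CCND1 knockdown, 1807, 1712 and 1763 in CDK4 knockdown, 2084, 2046 and 2078 in CDK6 knockdown and 1769, 1934 and 1759 in dual knockdown. The CCND1 and CDK6 knockdown libraries of TRIM22 lay above all 6 controls, and those of dual knockdown lay within their range. TRIM22 rose by 0.24 (SE 0.05, adjusted p = 0.00199) in CCND1 and 0.25 (SE 0.05, adjusted p = 0.000831) in CDK6 knockdown, and was 0.06 (SE 0.05, adjusted p = 0.375) in dual knockdown. TRIM22 (chr11:5689610-5737089, hg38) shares 642 exon bases with the olfactory receptor gene OR56B1 on the same strand, where reads cannot be told apart. Its rise kept its side of the threshold under the alternatives tried for both knockdowns, with values of 0.19 to 0.28 and 0.20 to 0.29. TRIM21 was -0.26 (SE 0.10, adjusted p = 0.0425) in CDK6 knockdown, a call lost without any 1 of NT3 libraries 1 and 3, NT4 libraries 2 and 3, and CDK6 libraries 1 and 2. SP110 was -0.21 (SE 0.08, adjusted p = 0.0475) in dual knockdown, a call lost without any 1 of NT3 libraries 1 and 3, NT4 libraries 2 and 3, and dual knockdown libraries 1 and 3, and -0.19 (SE 0.08, adjusted p = 0.0857) in CCND1 knockdown.

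PARP9 and PARP14 act in ADP-ribosylation, XAF1 opposes the apoptosis inhibitor XIAP, and EPSTI1 is an interferon-responsive protein first described in breast stroma. All 4 rose in senescent controls (median 1.96 log2) and fell in CCND1, CDK6 and dual knockdown (medians -0.77, -0.83 and -1.25), and 0 of the 4 passed the test in CDK4 knockdown. PARP14 had normalised counts of 801.8, 785.3 and 882.2 in proliferating cells, 2819.5, 2500.0 and 2156 with NT3 and 2357, 2466 and 2727 with NT4. They were 1485, 1467 and 1654 in CCND1 knockdown, 2648, 2042 and 2403 in CDK4 knockdown, 1203, 1812 and 1582 in CDK6 knockdown and 1127, 1257 and 956.02 in dual knockdown. CCND1, CDK6 and dual knockdown left PARP14 below the 6 controls, at -0.70, -0.72 and -1.17 log2. XAF1 had normalised counts of 36.7, 37.2 and 31.9 in proliferating cells, 751.6, 561.9 and 674.7 with NT3 and 504.1, 604.3 and 609.8 with NT4. They were 278.6, 308.3 and 402.4 in CCND1 knockdown, 715.98, 500.4 and 753.8 in CDK4 knockdown, 216.8, 445.4 and 343.9 in CDK6 knockdown and 186.5, 255.5 and 141.2 in dual knockdown. XAF1 showed the same separation from the controls; it rose by 4.08 (SE 0.19, adjusted p = 4.5e-14) in senescent controls and fell, with log2 changes of -0.91, -0.93 and -1.69 in CCND1, CDK6 and dual knockdown. EPSTI1 and PARP9 fell, with log2 changes of -1.33 and -1.16 in dual knockdown.

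CXCL10 and CXCL11 are chemokines that draw T cells through the receptor CXCR3, and they lie next to each other on chromosome 4. CXCL10 is at chr4:76021118-76023497 (hg38). CXCL10 had normalised counts of 6.11, 4.26 and 6.20 in proliferating cells, 1018, 710.9 and 1450.2 with NT3 and 464.1, 670.5 and 534.8 with NT4. They were 370.1, 413.97 and 620.3 in CCND1 knockdown, 553.1, 381.6 and 562.4 in CDK4 knockdown, 176.1, 256.2 and 143.7 in CDK6 knockdown and 79.5, 98.3 and 115.1 in dual knockdown. The CCND1 knockdown libraries of CXCL10 overlapped NT4, the CDK6 knockdown libraries lay below all of these, and the dual knockdown libraries lay lower still. CXCL10 reads in the controls were 140.2 (95% exact interval 88.6 to 236.8) times those in proliferating cells per unit of size factor. CXCL10 changed by -0.71 (SE 0.22, adjusted p = 0.0159) log2 in CCND1, -0.60 (SE 0.22, adjusted p = 0.0618) in CDK4, -1.998 (SE 0.22, adjusted p = 2.43e-07) in CDK6 and -2.94 (SE 0.22, adjusted p = 4.91e-10) in dual knockdown. The CCND1 call was lost against NT4 alone (-0.27) and without CCND1 library 1 (-0.56) or library 2 (-0.64), and the CDK4 value passed the test without NT3 library 2 (-0.73). CXCL11 fell, with log2 changes of -0.82, -1.56 and -2.64 in CCND1, CDK6 and dual knockdown; its CCND1 call was lost against NT4 alone (-0.78) and without CCND1 library 1 or library 2.

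Direct comparisons between knockdowns do not use the shared controls. CDK6 knockdown was lower than CDK4 knockdown for 34 of the 38 genes and higher for 2, IFITM2 and TRIM22 (median -0.98 log2 against -0.01 over all genes; 17.5% of all tested genes were called higher, 17.3% lower and 34.8% in either direction). MX1 differed by -1.68 (SE 0.25, adjusted p = 2.05e-05), RSAD2 by -2.34 (SE 0.30, adjusted p = 2.16e-06) and ISG15 by -1.40 (SE 0.19, adjusted p = 6.51e-06). Dual knockdown was lower than CDK6 knockdown for 22 genes and higher for 1, LGALS3BP (0.24, SE 0.08, adjusted p = 0.0464), with a median of -0.48 against 0.00 over all genes; 6.05% of all tested genes were called higher, 6.94% lower and 13.0% in either direction. Among those lower were IFI44L (-1.52, SE 0.31, adjusted p = 0.00203), MX1 (-1.12, SE 0.25, adjusted p = 0.00455) and IFIT1 (-1.06, SE 0.25, adjusted p = 0.00697), and 7 of the 8 RNA-binding and translation-blocking genes passed. ISG15 (-0.13, SE 0.19, adjusted p = 0.716), IFITM3 (-0.05, SE 0.11, adjusted p = 0.832) and IFI6 (-0.25, SE 0.22, adjusted p = 0.502) did not pass, and 0 of the 4 TRIM and nuclear body genes did. The count of 23 called in either direction was 10 without CDK6 library 2, 12 without CDK6 library 3, 14 without dual knockdown library 1 and 12 without dual knockdown library 3. Counts over all tested genes in these refits are not given here, so whether the list moved apart from them is not shown.

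Dual knockdown was lower than CCND1 knockdown for 28 genes and higher for 0 (median -0.72 log2, 0.00 over all genes; 9.12% of all tested genes were called higher, 11.2% lower and 20.3% in either direction), with CXCL10 at -2.23 (SE 0.25, adjusted p = 1.16e-06) and IFI44L at -1.75 (SE 0.31, adjusted p = 0.000316). CDK6 and CCND1 knockdown differed in 3 genes, all lower in CDK6 knockdown: CXCL10 (-1.29, SE 0.25, adjusted p = 0.00128), IFI6 (-0.68, SE 0.22, adjusted p = 0.046) and ISG15 (-0.62, SE 0.19, adjusted p = 0.0379); 5.43% of all tested genes were called higher, 6.78% lower and 12.2% in either direction. This count was 5 without CDK6 library 2, 1 without CCND1 library 2, CCND1 library 3, CDK6 library 1 or CDK6 library 3, and 9 when the compared groups were fitted alone. Of the 11579 tested genes 1414 were called in the main fit and 2416 with the compared groups alone. Without CDK6 library 2 they numbered 1094, and in the refits with 1 call 927 to 991. For MX1 and RSAD2 the difference between these 2 knockdowns was -0.23 (SE 0.25, adjusted p = 0.633) and -0.83 (SE 0.30, adjusted p = 0.0711).

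**Figure D4:**
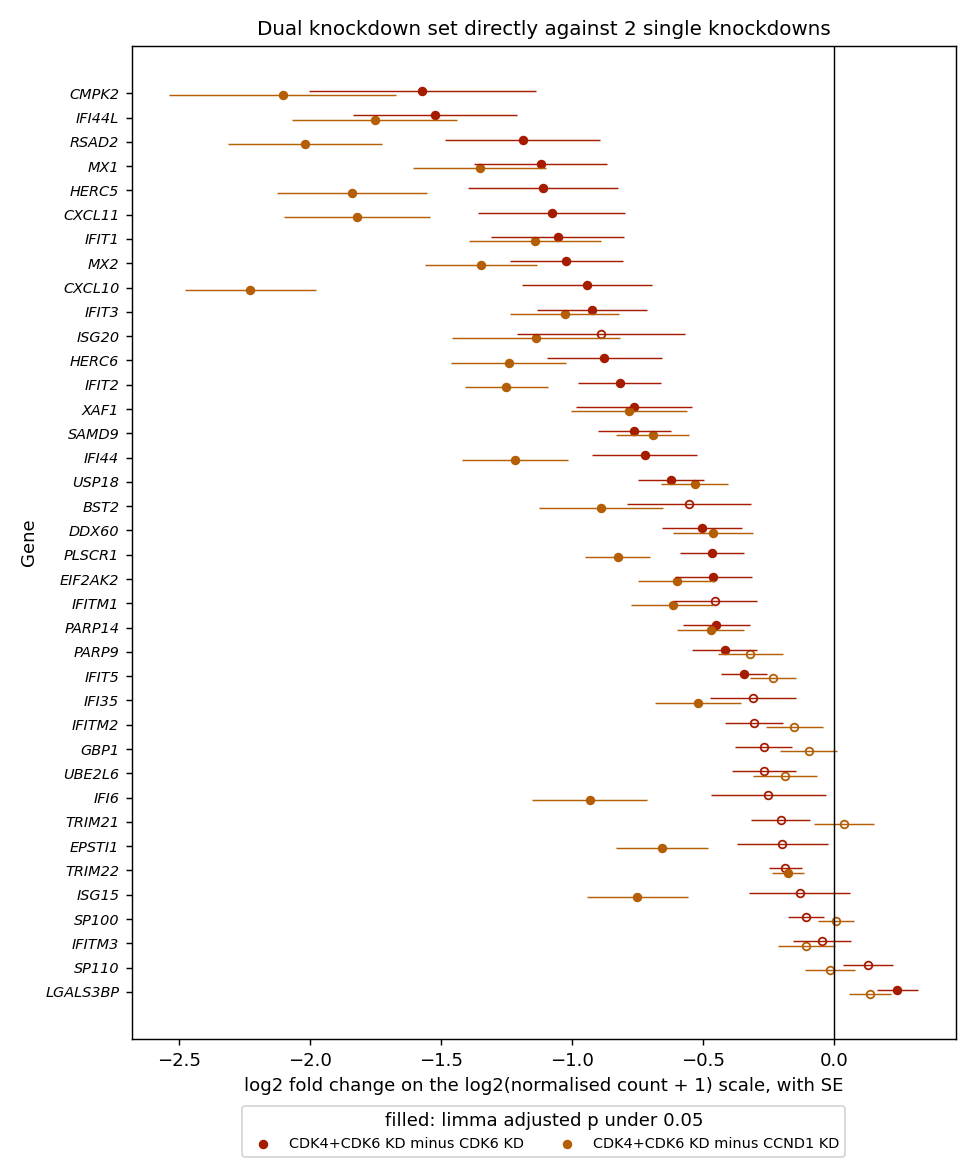
Log2 differences of the 38 genes between dual knockdown and CDK6 knockdown, and between dual and CCND1 knockdown, 1 point a gene and comparison, with filled points for adjusted p under 0.05 and bars for the standard error from limma. The medians are -0.48 for dual against CDK6 knockdown and -0.72 for dual against CCND1 knockdown, and LGALS3BP is the 1 gene called higher, against CDK6 knockdown.

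Dual knockdown was also set against the sum of the 2 single knockdowns, which tests whether the change with the CDK6 siRNA differs with and without the CDK4 siRNA. The departure from the sum on the log2 scale passed the test for 6 of the 38 genes, all lower than the sum, beside 2.63% of all tested genes above it, 3.71% below it and 6.35% in either direction. The 6 were IFIT2, DDX60 and SAMD9 of the RNA-binding class, MX2, USP18 and GBP1. The departure of IFIT2 was -0.99 (SE 0.21, adjusted p = 0.00508). GBP1 lay above the controls in CDK4 (0.25), CDK6 (0.50) and dual knockdown (0.23), with only the CDK6 value past the test. Its departure is thus a smaller rise than the sum, and not a fall below the controls. The median departure over the 38 was -0.49 log2, against 0.00 over all tested genes. For ISG15 it was 0.00 (SE 0.25, adjusted p = 0.998) and for IFI44L -1.34 (SE 0.42, adjusted p = 0.057). The count moved with single libraries: it was 15 without NT3 library 3, 12 without CDK6 library 1 and 10 without dual knockdown library 2, 3 without CDK4 library 3 or dual knockdown library 3, and 2 without CDK4 library 1, CDK6 library 2, CDK6 library 3 or dual knockdown library 1. The Spearman correlation of transcript length with the departure was -0.43 over the 38 genes and -0.307 over all genes, and -0.335 and -0.164 without NT3 library 3; its part in the departures was not tested.

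After dual knockdown most effector genes still lay above the level of proliferating cells. Of the 38, 31 were higher than in proliferating libraries and 1, IFITM2 (-0.55, SE 0.11, adjusted p = 0.000142), was lower, with a median of 1.08 log2 (0.00 over all genes; 32.7% of all tested genes were called higher, 32.9% lower and 65.6% in either direction). Among the 31 are HERC5, BST2, RSAD2, CMPK2, IFI44L, CXCL10 and CXCL11, which met the minimum only through irradiated libraries. MX1 was 3.29 (SE 0.25, adjusted p = 1.95e-10) and ISG15 2.36 (SE 0.19, adjusted p = 4.86e-10) above proliferating cells. The 6 genes that did not pass were EIF2AK2 (0.08), ISG20 (-0.68), PLSCR1 (-0.23), GBP1 (0.15), IFI35 (0.30) and TRIM21 (0.18). PLSCR1 and IFI35 had risen in senescent controls by 1.51 and 1.61 log2.

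The non-targeting siRNAs differed from each other in part of the list. With NT4 13 of the 38 genes were lower than with NT3 and 1 (IFIT2) was higher (median -0.28 log2, -0.01 over all genes; 14.7% of all tested genes were called higher, 13.1% lower and 27.8% in either direction). BST2 (-1.05, SE 0.24, adjusted p = 0.00226), RSAD2 (-0.98, SE 0.30, adjusted p = 0.017) and MX1 (-0.92, SE 0.25, adjusted p = 0.00952) had the lowest values. The count of 14 fell to 9 without NT3 library 3 and to 5 without NT4 library 1, and to 6 when the compared groups were fitted alone. Whether calls over all tested genes fell likewise in these refits is not shown here. Transcript length correlated with the difference at 0.514 over the 38 genes and 0.359 over all genes (Spearman), and at 0.309 and 0.095 without NT3 library 3; its part in the difference was not tested. Against NT3 or NT4 alone, the counts called in CCND1 knockdown were 34 and 29, in CDK6 knockdown 36 and 35, and in dual knockdown 35 and 32. Of all tested genes, 4424 and 2235 were called in CCND1 knockdown in the same fits, and 5365 and 3546 in CDK6 knockdown. The counts over all tested genes for dual knockdown are not given here.

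The genes upstream of the effectors were described from a second list of ligands, receptors, kinases and transcription factors. The ligand genes were barely read: IFNB1 had 11 reads in the 3 NT3 libraries together, 5 in NT4, 6 in CDK4 knockdown, 1 in CDK6 knockdown, and 0 in proliferating cells, CCND1 knockdown and dual knockdown, which allows up to 3 reads in each of those groups. IFNA1 had 2 to 30 reads a group, and IFNG had 1 read in all 21 libraries together; at this depth no difference in these genes was tested, and IFNL1 and IFNE were not analysed here. Of the 15 genes of this list that met the minimum, 7 rose and 4 fell in senescent controls (median 0.33 log2); those that fell were JAK2, TYK2, IRF2 and SOCS1, and the 11 called of 15 are near the 68.6% of all tested genes called. In CCND1, CDK4, CDK6 and dual knockdown 1, 2, 2 and 1 rose and 6, 0, 7 and 5 fell; the risers were IFNAR1 in CCND1, CDK6 and dual knockdown, JAK2 in CDK4 and CDK6 knockdown, and IFNGR1 in CDK4 knockdown, and the 5 that fell in dual knockdown were STAT2, IRF1, IRF7, IRF9 and SOCS3. The shares of all tested genes called in either direction in the 4 knockdowns were 31.0%, 16.0%, 41.9% and 44.0%. The calls of JAK2 in CDK4 knockdown and IFNGR1 in CDK4 knockdown were lost against NT4 alone (0.14) and NT3 alone (0.20), and that of JAK2 also without any 1 of 7 libraries, NT3 library 3 and NT4 library 3 being the exceptions. The fall of IRF1 in dual knockdown (-0.40, SE 0.13, adjusted p = 0.021) was lost against NT3 alone (-0.37) and without NT4 library 2, dual knockdown library 1 or dual knockdown library 3. IFNAR1, a chain of the type I interferon receptor, rose by 0.29 (SE 0.08, adjusted p = 0.00622) in dual knockdown, a call lost with the compared groups alone and against NT4 alone (0.17), and JAK1 was -0.05 (SE 0.07, adjusted p = 0.605).

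Of the ISGF3 subunits, IRF9 fell in dual knockdown against either control siRNA, and STAT2 fell against NT3. IRF9, the subunit that recognises the ISRE, rose by 1.83 (SE 0.07, adjusted p = 7.77e-16) in senescent controls and changed by -0.77 (SE 0.07, adjusted p = 7.09e-09) in dual knockdown, -0.82 against NT3 alone and -0.71 against NT4 alone. STAT2 rose by 0.74 (SE 0.06, adjusted p = 7.58e-10) in senescent controls and changed by -0.22 (SE 0.06, adjusted p = 0.0061) in dual knockdown. The change of STAT2 in dual knockdown was -0.43 against NT3 alone and -0.02, not past the test, against NT4 alone, and the call was also lost without dual knockdown library 3 (-0.16). In CDK6 knockdown STAT2 was -0.17 (SE 0.06, adjusted p = 0.0321), and 0.04 against NT4 alone. IRF7, the factor that amplifies interferon production, had 51 and 60 reads in NT3 and NT4 and 2 in dual knockdown, and its fitted change was -3.66 (SE 0.63, adjusted p = 7.19e-05). Among 20 tested partners and paralogs of the effectors, 15 rose and 1 (GBP2) fell in senescent controls, and 13, 1, 14 and 15 fell in CCND1, CDK4, CDK6 and dual knockdown with 0 higher in each; 32.6% of all tested genes were called higher in senescent controls, and 14.4%, 7.55%, 20.8% and 21.5% lower in the 4 knockdowns. The 1 in CDK4 knockdown was TRIM25, a ligase that activates the RNA sensor RIG-I, at -0.67 (SE 0.07, adjusted p = 1.58e-06); it was -1.23 (SE 0.07, adjusted p = 1.79e-11) in dual knockdown. OAS1, OAS2 and OAS3, which make the activator of RNase L, fell, with log2 changes of -3.72, -3.37 and -2.89 in dual knockdown. The RNA sensors IFIH1 (MDA5) and RIGI fell, with log2 changes of -2.13 and -0.84, whereas GBP2 (-0.04, SE 0.15, adjusted p = 0.849) and GBP3 (-0.01, SE 0.05, adjusted p = 0.857), relatives of GBP1, did not pass.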

How the data were processed

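The deposited table holds normalised counts (signal) for 16383 genes in 21 libraries; per the file headers each column names a group, and per the submitters' processing notes the tools were Trimmomatic 0.38.1, HISAT2 2.2.1, featureCounts 2.0.3, FastQC 0.74, MultiQC and DESeq2 2.11.40.8 on hg38/GRCh38, with no strand setting given in the sources used here. The values are whole reads times 1 factor a library (tolerance 0.01), so reads were recovered from the steps between low values for the count tests and for the read totals printed.

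Genes with a value of 10 or more in 3 or more columns were tested with limma 3.58.1 (R 4.3.3; trend) on log2(value + 1), with 1 mean for each of 7 groups, all 21 libraries sharing 1 spread, and Benjamini-Hochberg adjustment over all 11579 genes of a comparison. Controls were the mean of the NT3 and NT4 means. Log2 differences understate the change of low genes. The fits were repeated with a pseudocount of 0.1 or 10, without the filter or with a mean of at least 100, with median centring, with quantile normalisation, on the compared groups alone, with each control siRNA alone, without each library, and with edgeR 4.0.16 and DESeq2 1.42.0 on recovered reads; a block for runs of numbers in the column names was added after seeing the data. The scripts were tested on simulated data.

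The members and lists were chosen with earlier results of these data known. Values in each library are given for the member of each role class with the highest mean, the member with the widest range of group means, and members whose knockdown calls go against most of the list. 1 gene of the list of upstream genes is not reported here and is not in its counts. Exon overlaps and lengths come from GENCODE v44, and intervals cover counting error only.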

Additional observations from a re-analysis of the deposited data

Results flagged for a closer look

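The change with the CDK6 siRNA differed with and without the CDK4 siRNA for 6 of the 38 genes, by the interaction term of the limma fit over all tested genes. The departure of dual knockdown from the sum of the single knockdowns, in log2, was -0.99 for IFIT2 (SE 0.21, adjusted p = 0.00508), -0.98 for MX2 (SE 0.28, adjusted p = 0.0428), -0.82 for SAMD9 (SE 0.18, adjusted p = 0.00839), -0.82 for DDX60 (SE 0.20, adjusted p = 0.0168), -0.66 for USP18 (SE 0.17, adjusted p = 0.0212) and -0.52 for GBP1 (SE 0.15, adjusted p = 0.0359). GBP1 was not below the controls in dual knockdown (0.23), so its departure is a smaller rise than the sum. Of these calls, that of SAMD9 was kept under each alternative tried, that of IFIT2 under each except NT4 alone as control (-0.62), and the calls of DDX60, USP18, GBP1 and MX2 were each lost when any 1 of 5, 5, 8 and 9 libraries was left out.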

How the results depend on the processing

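Of 9507 log2 values recomputed for the 38 genes and the 2 lists of pathway genes, 9138 kept their side of the threshold, 135 gained a call and 233 lost one with the same sign, and 1 called value changed sign, that of STAT2 in CDK6 knockdown against NT4 alone (0.0364); sign changes of values called in neither fit are not counted. In CDK4 knockdown the 2 calls were downward, and without CDK4 library 2 the 1 call was upward and the median over the 38 genes turned from -0.06 to 0.04. Counts of the 38 genes called stayed within 1.5 times for senescence, CCND1, CDK6 and dual knockdown against controls, CDK6 against CDK4 knockdown, and dual knockdown against CCND1 knockdown and proliferating cells. With each library left out in turn, counts ranged from 0 to 4 for CDK4 knockdown, 5 to 18 for NT4 against NT3, 2 to 15 for the departure from the sum, 10 to 23 for dual against CDK6 knockdown and 1 to 5 for CDK6 against CCND1 knockdown. Over all tested genes the calls ranged from 1061 to 2694 for CDK4 knockdown and 442 to 1436 for the departure. For CDK6 against CCND1 knockdown they ranged from 927 to 1094. Those for NT4 against NT3 and for dual against CDK6 knockdown are not given here. CDK4 knockdown gave 0 with no filter, 1 with the compared groups alone, 7 against NT3 alone and 0 against NT4 alone. All tested genes called in the same fits numbered 1696, 787, 2962 and 1342, beside 1854 in the main fit. CDK6 against CCND1 knockdown gave 5 with a pseudocount of 10, 1 with no filter, 9 with the compared groups alone and 5 with DESeq2. All tested genes called in the same fits numbered 1450, 1280, 2416 and 1661, beside 1414 in the main fit. NT4 against NT3 gave 6 with the compared groups alone, and the departure gave 11 with edgeR and 12 with DESeq2. For the departure, 765 of all tested genes were called with edgeR and 996 with DESeq2, beside 735 in the main fit. The cause was not tested. The columns carry no replicate number, so those of the labels could not serve as a block. A replicate block for runs of numbers in the column names was chosen after seeing the data. It gave 0 calls in CDK4 knockdown and moved no other count by over 1.5 times. Each run held a library of every irradiated group. Same-run libraries correlated in their deviations at -0.11 to 0.10 (45 pairs, median 0.0372). Libraries of other runs correlated at -0.144 to 0.161 (90 pairs, median -0.0166). Depth limits the genes under about 10 reads a library, such as IFI27, IFNB1 and the proliferating libraries of RSAD2.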

Other observations

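Within groups, the 38 genes tended to move together from library to library. In CDK4 knockdown library 2, 0 of the 38 lay above their group mean, and in library 3 of that group 36 did. In CDK6 knockdown library 2, 37 of the 38 lay above, and in library 1 of that group 3 did. CCND1 knockdown library 3 had 36 above and library 1 had 2. By library number, NT3 had 29, 3 and 28, NT4 had 2, 34 and 26, and dual knockdown had 15, 29 and 9. The proliferating libraries had 17 to 19. Genes above their group mean were not counted over all tested genes. In CDK4 knockdown library 2 the median absolute deviation from the group mean was 0.215 log2 over the 38 genes and 0.0614 over all tested genes, and in CDK6 knockdown library 1 it was 0.244 and 0.0605. The median difference of the 38 genes from the control mean was -1.72 to -1.52 log2 over the 3 dual knockdown libraries, -1.29 to -0.86 over those of CDK6 knockdown and -0.98 to -0.59 over those of CCND1 knockdown.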
